A study of Mus musculus with 6 samples.

Results

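The genes described here set how pyruvate and ketone bodies enter the mitochondria's fuel supply, and they were measured in subcutaneous fat from the groin (inguinal white adipose tissue, iWAT) of mice without the zinc transporter Zip13 and of WT littermates. The 9 genes, chosen by name, are the 4 pyruvate dehydrogenase kinases Pdk1, Pdk2, Pdk3 and Pdk4, the 2 phosphatases Pdp1 and Pdp2, and the 3 ketone body enzymes Bdh1, Oxct1 and Acat1. Every probe annotated to a RefSeq transcript of one of them was used, 14 probes in all, 1 each for 6 of the genes, 3 each for Pdp1 and Bdh1 and 2 for Pdp2. All 9 genes passed the filter on dim probes and stood among 15306 genes tested. Each genotype, WT and Zip13-KO, had 3 arrays, and the mice were 10 weeks old. Both genotypes had a C57BL/6J background after at least 7 generations of backcrossing, and all animals ate powdered food. In the Zip13-KO, exons 6 to 8 of Zip13 (Slc39a13) are replaced by a Neo cassette in the germline, so every cell of the animal carries the deletion. The labels name both a standard and a high-fat food and do not say which the array mice received.

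Pyruvate dehydrogenase is the mitochondrial enzyme complex that turns pyruvate, the end product of glycolysis, into acetyl-CoA. The kinases phosphorylate its E1 alpha subunit, encoded by Pdha1, and so switch the complex off, and the phosphatases switch it on again. Pdk4 is known as the kinase that responds most to fasting and fatty acids, through PPAR and ERR nuclear receptors among others, and it is abundant in heart, muscle and brown fat. Ketone bodies are made in the liver and burned elsewhere: Bdh1 oxidizes 3-hydroxybutyrate to acetoacetate, Oxct1 activates acetoacetate with CoA, and Acat1 splits the product into acetyl-CoA.

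Values are log2 intensities of a spot's processed signal after quantile normalization between the 6 arrays, and a level is never compared between probes, because each probe binds with its own strength. Summed intensities of cell type markers add different probes on the linear scale, so the brightest probes weigh most in them. A gene was called when its Benjamini-Hochberg adjusted p from limma was under 0.05 and its log2 fold change, Zip13-KO minus WT, was beyond 0.58. All 6 arrays lay on 1 slide, with the WT arrays and Zip13-KO replicate 1 in one column of it and Zip13-KO replicates 2 and 3 in another. Between 58.8% and 63.2% of the spots on an array were well above background and none was saturated. The targeted gene, Slc39a13, had a log2 intensity of 11.29, 10.87 and 10.72 on the WT arrays against 6.76, 6.66 and 6.47 on the Zip13-KO arrays and so followed the labels, though where its probe lies relative to the deleted exons was not established. Adipocyte markers were present, with 10 of 10 tested. Each sample is bulk tissue, in which fewer cells of a type and less RNA per cell cannot be told apart.

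Of the 9 genes, 5 were higher in Zip13-KO iWAT (Pdk1, Pdk2, Pdk4, Pdp2 and Acat1), 1 was lower (Pdk3), and 3 did not pass the test (Pdp1, Bdh1 and Oxct1). With the slide column as a term of the fit, 0 of the 9 were called, with the same directions for these 6 and adjusted p values of 0.0578 to 0.107. Among all genes tested, 10.3% were called higher and 8.38% lower, 18.7% in all. The same 6 genes had every Zip13-KO array on one side of every WT array, 5 above (29.2% of all genes tested) and 1 below (25.9%), which 55.1% of all genes tested did in either direction. This fixed their directions under the slide column term, where the genotype difference rests on Zip13-KO replicate 1. With no fold threshold, 6 of the 9 had an adjusted p under 0.05, against 34.5% of all genes tested. Of the 9, 6 had a log2 fold change above 0, against 49.9% of all genes tested. The median log2 fold change of the 9 genes was 0.69, and that of all genes tested was -0.00051. The kinases thus did not move together, and the log2 fold changes of Pdk4, Pdk2 and Pdp2 lay above those of 98.4%, 98.1% and 97.9% of all genes tested.

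**Figure D1:**
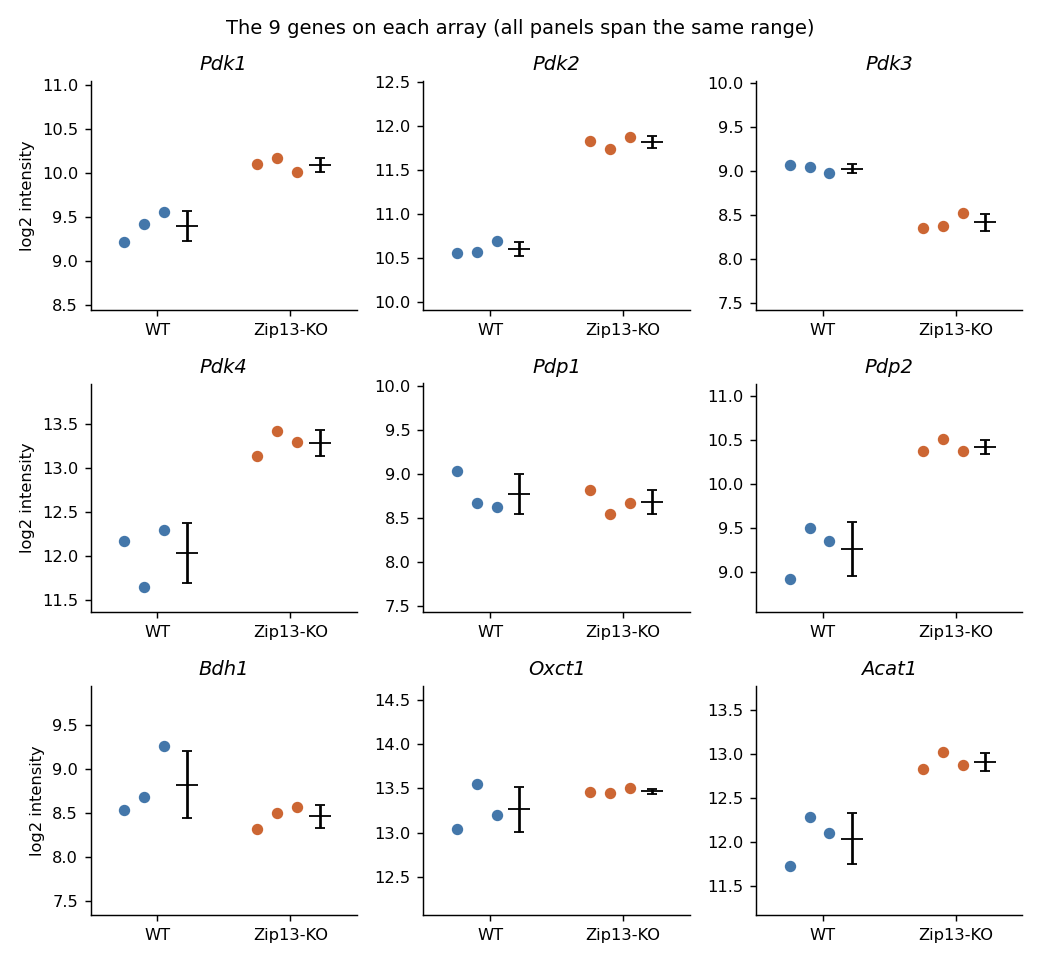
Log2 intensity (vertical axis) of the probe that stands for each of the 9 genes on the 3 WT arrays (blue) and the 3 Zip13-KO arrays (orange), with the mean and SD of each group in black; every panel covers the same log2 range around its own mean. The groups lie apart for Pdk1, Pdk2, Pdk3, Pdk4, Pdp2 and Acat1 and overlap for Pdp1, Bdh1 and Oxct1.

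**Figure D2:**
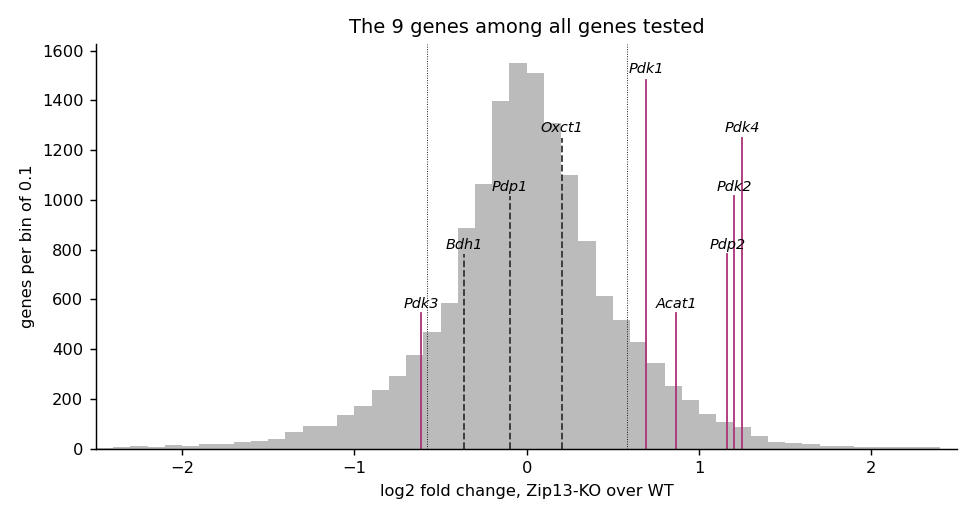
Number of genes (vertical axis, linear) by log2 fold change between Zip13-KO and WT iWAT (horizontal axis) for all genes tested, shown from -2.5 to 2.5, with the 9 genes as lines of arbitrary height, solid where called and dashed where not; dotted lines mark the fold threshold. Pdk2, Pdk4 and Pdp2 sit in the right tail at 1.21, 1.25 and 1.16, and Pdk3 lies just beyond the left threshold at -0.61.

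Pdk4, the kinase induced by fatty acids, read 12.17, 11.64 and 12.29 on the WT arrays and 13.13, 13.42 and 13.30 on the Zip13-KO arrays. Its lowest Zip13-KO array thus lay well above its highest WT array, and WT replicate 2 was the lowest of the 6. Pdk4 rose 2.38-fold, a log2 fold change of 1.25 (standard error, SE, 0.19; adjusted p = 0.00775, limma). It was above Pdk2 and Pdp2 here but not without WT replicate 2, where the log2 fold changes were 1.06 for Pdk4, 1.19 for Pdk2 and 1.29 for Pdp2.

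Pdk2, the kinase found in most tissues, had tight groups. It read 10.55, 10.57 and 10.70 in WT and 11.83, 11.74 and 11.87 in Zip13-KO iWAT, so that the gap between genotypes was many times the spread within them. The rise was 2.31-fold, with a log2 fold change of 1.21 (SE 0.080, adjusted p = 0.00326). Pdk1, a target of the hypoxia response in many cells, rose less. Its WT arrays stood at 9.22, 9.42 and 9.55 and its Zip13-KO arrays at 10.10, 10.17 and 10.01, with a log2 fold change of 0.69 (SE 0.11, adjusted p = 0.00856), or 1.62-fold.

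Pdk3 went the other way. It read 9.06, 9.04 and 8.97 on the WT arrays and 8.35, 8.37 and 8.52 on the Zip13-KO arrays, and the groups did not overlap. It fell 1.53-fold, with a log2 fold change of -0.61 (SE 0.080, adjusted p = 0.00643), close to the fold threshold. With normexp background correction, with no background correction and with the deposited table, the log2 fold change of Pdk3 was -0.53, -0.55 and -0.55, below the fold threshold but with adjusted p values of 0.00400, 0.00465 and 0.00454. Markers of macrophages were lower in the same arrays: 9 of 9 had a log2 fold change below 0 and 6 were called lower, and their summed intensity was 70006 to 109970 in WT and 35091 to 43085 in Zip13-KO iWAT. Their part in the fall of Pdk3 was not tested.

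The unequal response of the kinases was compared within each array, as the log2 ratio of their probes, over all 6 pairs. For 5 pairs the ratios of the 3 Zip13-KO arrays lay on one side of those of the 3 WT arrays. Each of these gave p = 0.1 in a two-sided exact permutation test, or 0.12 adjusted over the 6 pairs. The smallest p this number of arrays can give is 0.1. For the pairs with Pdk3 this was fixed in advance, because Pdk3 fell and its partner rose, both without overlap between genotypes. Of the 5 pairs, only Pdk1 with Pdk2 and Pdk1 with Pdk4 could have come out otherwise. The fold change of Pdk2 exceeded that of Pdk3 by 1.82 (SE 0.084) and that of Pdk1 by 0.51 (SE 0.11) on the log2 scale. Pdk4 exceeded Pdk3 by 1.86 (SE 0.23), and Pdk1 exceeded Pdk3 by 1.31 (SE 0.16). Between Pdk4 and Pdk1 the difference was 0.56 (SE 0.23), with a 95% interval for Pdk1 minus Pdk4 from -1.20 to 0.083 that includes 0. For Pdk2 minus Pdk4 it was -0.046 (SE 0.21), with an interval from -0.63 to 0.54, the ratios overlapped (exact permutation test, two-sided p = 0.8), and its sign turned without WT replicate 2 (0.13) and without Zip13-KO replicate 2 (0.062).

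Promoters are shown for the 3 genes with the largest rise, Pdk4, Pdk2 and Pdp2, and for Pdk3, the kinase that fell, so that the letters upstream of genes with opposite changes can be compared. The stretches run from 250 bases before the annotated start to 50 after it, are taken from RefSeq on GRCm38.p6, and are given 5′ to 3′ in the direction of the gene. Capitals mark each match to a searched motif. For Pdk2 the upstream of its 2 annotated starts is shown.

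Pdk4, chr6:5496229-5496528, minus strand: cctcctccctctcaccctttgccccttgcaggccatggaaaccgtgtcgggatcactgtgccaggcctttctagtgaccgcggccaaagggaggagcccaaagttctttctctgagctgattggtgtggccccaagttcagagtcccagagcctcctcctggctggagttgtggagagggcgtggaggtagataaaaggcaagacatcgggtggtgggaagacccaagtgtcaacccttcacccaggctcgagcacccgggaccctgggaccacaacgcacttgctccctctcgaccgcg

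Pdk2, chr11:95041322-95041621, minus strand: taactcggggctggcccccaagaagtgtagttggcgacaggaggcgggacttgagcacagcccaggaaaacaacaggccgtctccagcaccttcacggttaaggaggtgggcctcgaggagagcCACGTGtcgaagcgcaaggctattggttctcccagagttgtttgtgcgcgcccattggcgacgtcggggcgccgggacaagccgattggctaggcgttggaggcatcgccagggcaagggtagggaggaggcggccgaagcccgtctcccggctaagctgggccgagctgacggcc

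Pdp2, chr8:104591222-104591521, plus strand: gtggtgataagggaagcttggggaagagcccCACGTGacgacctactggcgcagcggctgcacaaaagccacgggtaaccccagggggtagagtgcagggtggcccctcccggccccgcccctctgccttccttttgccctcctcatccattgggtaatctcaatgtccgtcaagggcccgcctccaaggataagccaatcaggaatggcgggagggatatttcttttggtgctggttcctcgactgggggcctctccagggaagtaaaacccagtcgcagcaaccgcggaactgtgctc

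Pdk3, chrX:93832101-93832400, minus strand: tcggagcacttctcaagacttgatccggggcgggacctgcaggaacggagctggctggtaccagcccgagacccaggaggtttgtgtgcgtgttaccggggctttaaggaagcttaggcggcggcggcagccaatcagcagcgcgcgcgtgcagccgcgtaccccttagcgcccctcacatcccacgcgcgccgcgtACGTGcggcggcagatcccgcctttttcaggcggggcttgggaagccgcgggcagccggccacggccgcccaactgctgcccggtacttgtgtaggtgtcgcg

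Searched on both strands were AGGTCA (the half-site of PPAR and other nuclear receptors), the same half-site repeated after 1 base, TCAAGGTCA (the ERR element), GTAAACA (the FOXO element) and ACGTG (a form of the core of the hypoxia element). The other form of that core, GCGTG, was not searched, so it is neither counted nor in capitals. A promoter without ACGTG may still hold GCGTG: the letters printed for Pdk4 do, and so does a promoter of Pdk1 that is not printed. The promoter printed for Pdk3 holds both forms. The RefSeq promoters used here were 10, for 7 of the 9 genes. None of the 10 held AGGTCA, its repeat, TCAAGGTCA or GTAAACA, which were found in 16.3%, 0.0396%, 0.423% and 3.65% of all 32851 promoters of this length. ACGTG was in 4 of the 10, those printed for Pdk2, Pdp2 and Pdk3 and that of Oxct1, against 19.6% of all promoters. In Pdk2 and Pdp2 the matches on both strands overlap in the palindrome CACGTG, an E-box, which was counted after these matches were seen and lies in 7.15% of all promoters. It runs from base -126 to -121 in Pdk2 and from -219 to -214 in Pdp2, counted back from the start. A match is a string of letters and not a measured binding site.

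The 2 phosphatases differed. Pdp2, the phosphatase whose level is known to respond to insulin, read 8.92, 9.51 and 9.36 in WT and 10.38, 10.51 and 10.38 in Zip13-KO iWAT, with WT replicate 1 lowest and no overlap. It rose 2.24-fold, with a log2 fold change of 1.16 (SE 0.16, adjusted p = 0.00689). A second, dim probe for the same transcript was well above background on 1 of the 3 WT arrays and all 3 Zip13-KO arrays. It read 2.81, 3.63 and 2.79 in WT and 4.30, 4.25 and 4.48 in Zip13-KO iWAT, and no fold or test is given for it because most WT values were not measured above background.

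Pdp1, the calcium-sensitive phosphatase of muscle, read 9.04, 8.67 and 8.62 in WT and 8.82, 8.55 and 8.67 in Zip13-KO iWAT on its brightest probe, and the groups overlapped. The log2 fold change was -0.098 (SE 0.14, adjusted p = 0.61), with a 95% interval from -0.44 to 0.24. Without WT replicate 1 its sign turned, at 0.033. The other probes, for the same transcript, gave -0.36 (SE 0.15, adjusted p = 0.126) and -0.41 (SE 0.18, adjusted p = 0.127) in the fit of all probes, so none of the 3 was called. Within the array, Pdp2 exceeded Pdp1 by 1.26 on the log2 scale (SE 0.33, 95% interval 0.36 to 2.17), and the genotypes did not overlap (exact permutation test, two-sided p = 0.1); this pair was set against each other after the values were seen.

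Transcripts of the complex that these enzymes act on were higher too. Of the subunits, Pdha1, Pdhb, Dlat, Dld and Pdhx were tested and all 5 were called higher, with a median log2 fold change of 1.26, while the testis form Pdha2 did not pass the filter. Pdha1, the E1 alpha subunit and the kinases' substrate, read 11.75, 12.14 and 12.48 in WT and 13.46, 13.49 and 13.27 in Zip13-KO iWAT, with a log2 fold change of 1.29 (SE 0.19, adjusted p = 0.00781). Pdhx, which binds the E3 subunit to the core, had the smallest, 0.96 (SE 0.18, adjusted p = 0.0129). Without Zip13-KO replicate 2, 3 of the 5 were called.

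Set against Pdha1 in the same array, a comparison chosen after the values were seen, the ratios of 3 of the 6 regulators overlapped between genotypes and those of the other 3 did not. The fold change minus that of Pdha1 was -0.034 for Pdk4 (95% interval -0.84 to 0.77), -0.080 for Pdk2 (-0.64 to 0.48) and -0.12 for Pdp2 (-0.55 to 0.30), all on the log2 scale, and these intervals do not show that the genes changed equally. For Pdk1 it was -0.59 (-0.92 to -0.26), for Pdp1 -1.38 (-2.37 to -0.40) and for Pdk3 -1.90 (-2.64 to -1.15). In each of these last 3, every Zip13-KO ratio lay below every WT ratio (exact permutation test, two-sided p = 0.1). For Pdk3 this was fixed in advance, because on every Zip13-KO array Pdk3 lay below and Pdha1 above all WT arrays.

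**Figure D3:**
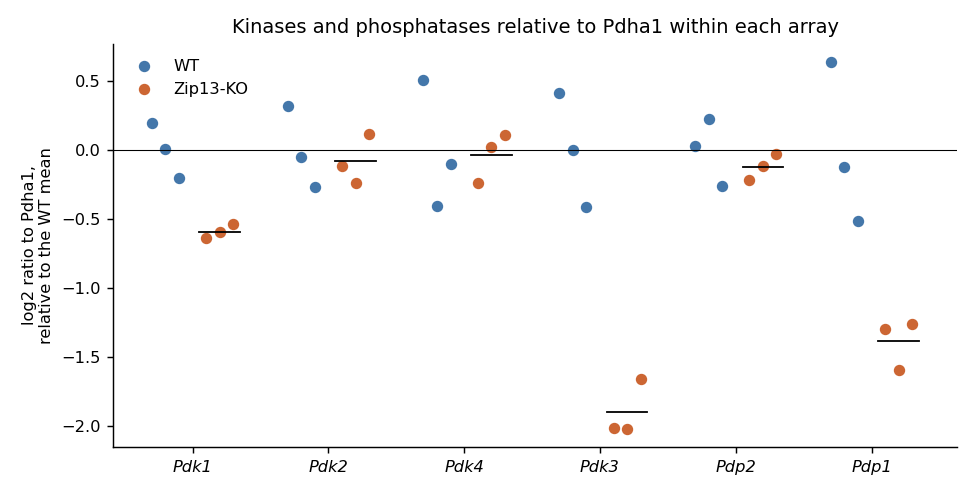
Log2 ratio of each kinase or phosphatase probe to the Pdha1 probe within an array (vertical axis), relative to the mean of the WT arrays; points are arrays, WT blue and Zip13-KO orange, and the black bar is the Zip13-KO mean. The Zip13-KO arrays overlap WT for Pdk2, Pdk4 and Pdp2 and lie below WT for Pdk1 (-0.59), Pdp1 (-1.38) and Pdk3 (-1.90).

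Among genes that supply pyruvate or use it in other ways, 9 of 10 were tested, all 9 had a log2 fold change above 0, and 6 were called higher, with a median of 1.14. The called genes were Mpc1 and Mpc2, the carrier that brings pyruvate into mitochondria, at 1.11 and 1.16, Pcx (pyruvate carboxylase) at 1.14, the lactate dehydrogenases Ldhb and Ldhd at 1.28 and 1.19, and Me1 (malic enzyme) at 1.33. Gpt2, an alanine aminotransferase, had the smallest at 0.31 (adjusted p = 0.343). Leaving out Zip13-KO replicate 1 left 3 of these called, as did leaving out Zip13-KO replicate 2 and a plain t-test in place of limma. Bckdk, the sister kinase that acts on the branched-chain ketoacid dehydrogenase, rose by 0.59 (SE 0.076, adjusted p = 0.00633), only just beyond the fold threshold, and was not called without WT replicate 1 or without Zip13-KO replicate 2. Ppm1k, the phosphatase of that complex, had a log2 fold change of 0.085 (adjusted p = 0.429).

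Of the 3 ketone body enzymes, Acat1 alone was called. Acat1, the mitochondrial thiolase that also works in isoleucine breakdown, read 11.72, 12.29 and 12.10 in WT and 12.83, 13.02 and 12.87 in Zip13-KO iWAT. It rose 1.83-fold, with a log2 fold change of 0.87 (SE 0.16, adjusted p = 0.0116). Oxct1, the rate-limiting step of ketone use, read 13.04, 13.55 and 13.20 in WT and 13.46, 13.45 and 13.50 in Zip13-KO iWAT. Its Zip13-KO arrays were nearly equal and lay inside the WT range, and the log2 fold change was 0.21 (SE 0.14, adjusted p = 0.278, 95% interval -0.13 to 0.54). Without WT replicate 2, its highest array, the log2 fold change was 0.35 (adjusted p = 0.0459, limma), short of the fold threshold. Without WT replicate 1 it was 0.095 (adjusted p = 0.569, limma).

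Bdh1 read 8.53, 8.68 and 9.26 in WT and 8.31, 8.50 and 8.56 in Zip13-KO iWAT on its brightest probe, with WT replicate 3 above the other 5 arrays. The log2 fold change was -0.36 (SE 0.20, adjusted p = 0.201, 95% interval -0.85 to 0.13). A probe for another transcript, NM_001122683, gave -0.31 (SE 0.22, adjusted p = 0.311 over all probes). The third probe, for that transcript too, was well above background on all 3 WT arrays and on no Zip13-KO array, with mean log2 intensities of 3.68 and 3.17, and no fold is given for it because the floor of the Zip13-KO arrays, 3.71, exceeds the WT mean. Both measured probes were below 0 and none of the 3 was called (8.34% of all probes kept were called higher and 7.13% lower). Of the 14 probes of the 9 genes, 12 were well above background on all 6 arrays, of which 5 were called higher and 1 lower and 7 had groups that did not overlap, against 49.9% of all probes kept.

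Of the other ketone body genes tested, 3 were called higher and 0 lower. The genes called were Acat2, the cytosolic thiolase of sterol synthesis, at 1.32, its neighbouring paralog Acat3 at 1.10, and Aacs, which activates acetoacetate in the cytosol for lipid synthesis, at 1.24. Acat2 and Acat3 are so alike that their probes may bind both transcripts. Bdh2 had the lowest value of its list, -0.98 (SE 0.51, adjusted p = 0.179), with WT replicate 1 at 11.35 against 9.86 and 9.27 on the other WT arrays.

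The monocarboxylate transporters, which carry lactate and ketone bodies across the cell membrane, and the receptors for these metabolites moved in both directions. Of 8 genes, all tested, 2 were higher and 2 lower. Slc16a3 (MCT4), the lactate exporter of glycolytic cells, fell from 10.74, 9.68 and 9.16 on the WT arrays to 7.36, 7.65 and 7.67 on the Zip13-KO arrays, the largest fall at -2.30 (SE 0.39, adjusted p = 0.0102). Slc16a6 (MCT7), a ketone body transporter, fell by 0.92 on the log2 scale (SE 0.12, adjusted p = 0.00595). The lactate receptor Hcar1 rose by 1.27 (adjusted p = 0.0252) and Hcar2, the receptor for 3-hydroxybutyrate, by 0.63 (adjusted p = 0.0332). Leaving out WT replicate 1, 2 or 3 left 1 of these genes called higher, and leaving out Zip13-KO replicate 1, 2 or 3 left 0, as did no filter on dim probes and the plain t-test. Slc16a1 (MCT1) had a log2 fold change of -0.011 (adjusted p = 0.969).

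Of 14 transcription regulators known to act on Pdk genes, 7 were called higher and none lower, and the median log2 fold change was 0.65. Ppara, the receptor that induces Pdk4 in fasting, had the largest change: it read 8.99, 9.56 and 10.16 in WT and 11.57, 11.98 and 11.25 in Zip13-KO iWAT, a log2 fold change of 2.03 (SE 0.33, adjusted p = 0.00913), and its 3 probes ranged from 0.99 to 2.36. The others called were Pparg (1.13), the coactivators Ppargc1a (1.10) and Ppargc1b (1.19), the receptors Esrra (0.73) and Esrrg (1.15), and Klf15 (1.07). Foxo3 had the lowest value, -0.12 (adjusted p = 0.55), and was well above background on 2 of the 3 Zip13-KO arrays. Hif1a, whose protein acts on Pdk1, had a log2 fold change of -0.058 (adjusted p = 0.582). Without Zip13-KO replicate 1, 3 of the 14 were called.

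**Figure D4:**
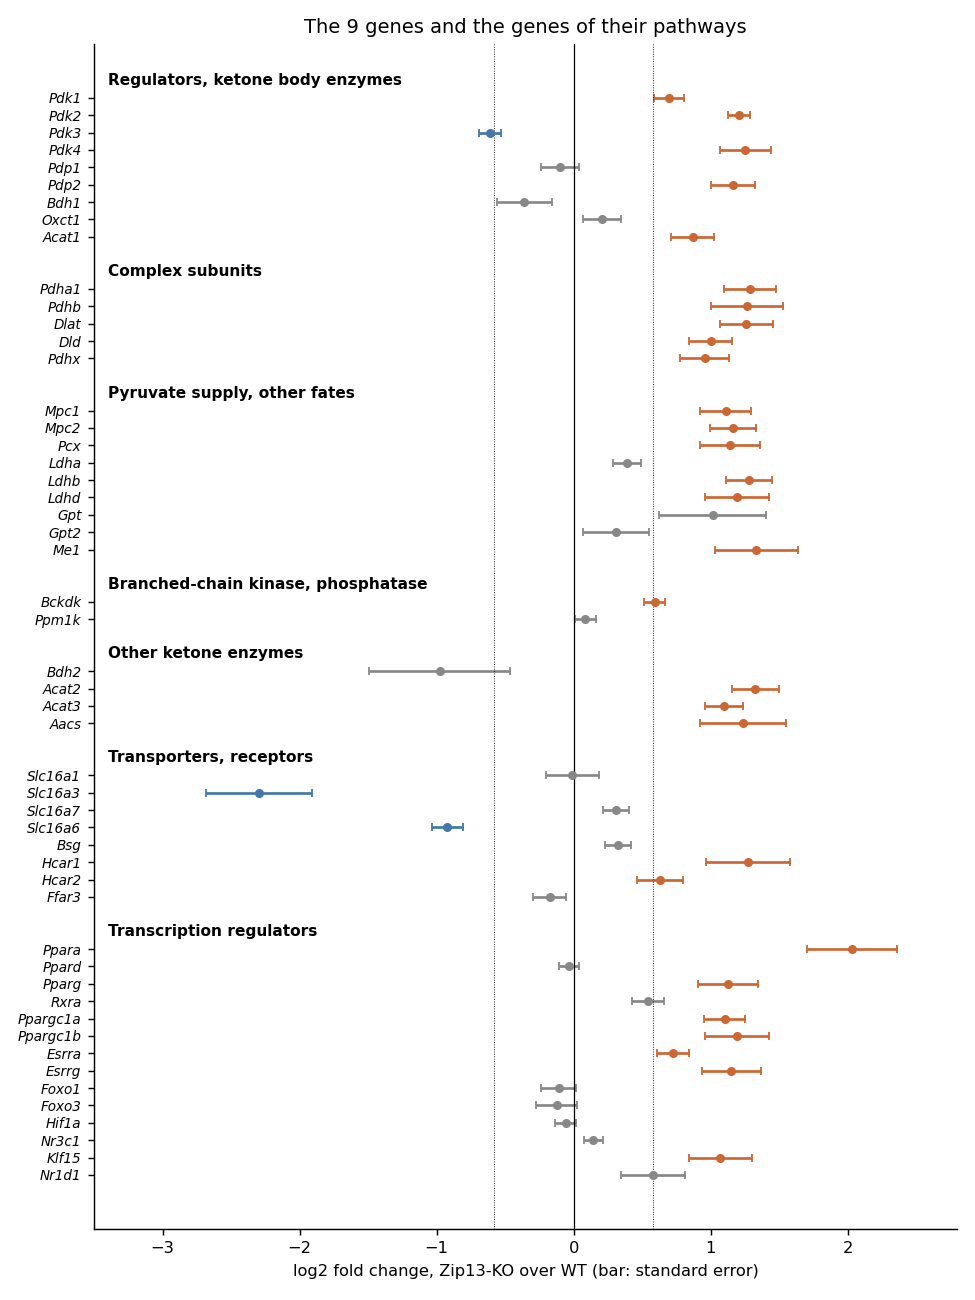
Log2 fold change between Zip13-KO and WT iWAT (horizontal axis) of the 9 genes and of genes of the 6 pathway lists, with the standard error as a bar; orange genes were called higher, blue lower and grey neither, and dotted lines mark the fold threshold. The subunits of the complex lie between 0.96 and 1.29, Pdk3 is the single kinase below 0, and Slc16a3 lies farthest to the left at -2.30.

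The 5 tested genes whose log2 intensity followed that of Pdk4 most closely over the 6 arrays were Zfp174 (Pearson's r = 0.9996), Elovl3 (0.9969), Hcfc2 (0.9961), Lrrc36 (0.9926) and Galc (0.9916). The log2 fold changes of Zfp174, Hcfc2, Lrrc36 and Galc were 1.12, 0.25, 0.65 and 0.60. Elovl3, a fatty acid elongase of brown fat, was well above background on 2 of the 3 WT arrays and all 3 Zip13-KO arrays, so its fitted value of 4.84 partly rests on an unmeasured level. With 6 arrays that fall into 2 genotypes, 268 genes had an r above 0.95 with Pdk4, so these are a description of the nearest patterns.

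Markers of cell types moved with the genotype as well. The summed intensity of 9 brown adipocyte markers was 36687 to 59554 in WT and 166463 to 257106 in Zip13-KO iWAT, all 9 were called higher, and Ucp1 had the largest change at 5.16 on the log2 scale. Markers of adipocytes in general summed to 559044 to 739818 and 840401 to 859450, with 10 of 10 above 0 and 3 called higher. For skeletal muscle, which is rich in Pdk4, Oxct1 and Bdh1, 12 of 13 markers were tested, all 12 were above 0 and 1, Myl1, was called higher, and the sums were 6580 to 10393 and 11086 to 20443. Of the 12, only Myl1 had every Zip13-KO array above every WT array, against 29.2% of all genes tested. Myl1 also weighed most in these sums, so they do not show that the other muscle markers were higher on every Zip13-KO array. Stromal markers, 8 of 8 below 0 with 2 called lower, summed to 190199 to 404304 and 171623 to 211775. Endothelial markers, 7 of 7 above 0 with 2 called higher, summed to 9984 to 11338 and 14992 to 15910. Lymphocyte markers, 9 of 9 tested below 0 and 0 called by limma (3 with an adjusted and 7 with an unadjusted p under 0.05, short of the fold threshold), summed to 51208 to 61837 and 40296 to 43454. Mammary epithelial markers summed to 121 to 350 and 127 to 462, with 5 of 8 tested and 0 called by limma (1 with an unadjusted p under 0.05). Their part in the changes of the 9 genes was not tested.

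Leaving out any 1 of the 6 arrays left the same counts, 5 of the 9 genes higher and 1 lower. The lower call was borderline, as Pdk3 stood at -0.5803 without Zip13-KO replicate 1, against the fold threshold of 0.58. Within the slide column that held the 3 WT arrays and Zip13-KO replicate 1, the log2 fold changes were 1.10 for Pdk4, 1.22 for Pdk2, 0.70 for Pdk1, 1.12 for Pdp2, 0.79 for Acat1 and -0.68 for Pdk3, and adjusted p values were 0.140 to 0.186 in this subset, where 1 Zip13-KO array is assumed to vary like the others. With the slide column as a term of the fit to all 6 arrays the values were these again. Column and genotype could be told apart only through Zip13-KO replicate 1. For the 6 called genes that array lay on the same side of every WT array, so their directions could not turn. Nothing in the labels says how the RNA of a replicate was obtained beyond its being 1 of 3 samples, so p values measure the spread between these samples.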

How the data were processed

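RNA from 3 WT and 3 Zip13-KO samples of iWAT was measured on Agilent SurePrint G3 Mouse arrays in the 1-colour assay. Per the file headers, the authors' scanner files were made with Feature Extraction 11.5.1.1 and give a processed signal in intensity units, corrected for background and slide trends but not between arrays. The table the authors deposited holds log2 values, quantile normalized. Their order within an array follows the median spot signal without background correction (rank correlation 1).

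Processed signals were log2 transformed, without control and outlier spots, replicate spots were averaged, and arrays were quantile normalized. Kept probes were well above background on all 3 arrays of a genotype (33046), and 20318 had a symbol through their accession (RefSeq, GRCm38.p6). The brightest probe stood for a gene. Genes, and separately 33038 probes with a value on every array, were fitted with limma 3.58.1 in R 4.3.3. The steps were tested on simulated data. The design's annotation is on mm9, so only RefSeq promoter positions are given.

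The 9 genes, the lists and the tests were chosen with earlier results of these data known. Named are the 9 genes, the called and extreme genes of each list, the targeted gene, Ucp1 and the 5 genes nearest to Pdk4; Slc16a1, Hif1a and Myl1 were added after their values were seen. Alternatives were the 75th percentile scaling, normexp (offset 50) and no background correction of the median signal, the deposited table, other filters, the mean of probes, a robust prior with an intensity trend, a plain t-test with Benjamini-Hochberg adjustment (the methods combine a t-test with a median-ratio test, which was not run), the replicate block, the slide column, no fold threshold and leaving out each array. Slide column 1 alone was added after seeing the data. Same-numbered arrays did not deviate together (correlations -0.021, 0.038 and -0.080), which gives no sign that the numbers pair the samples. With so few arrays, such correlations cannot show that the samples are unpaired. The number of arrays limits the precision. Protein sequences were not used here, and some genes of the lists are not reported here.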

Additional observations from a re-analysis of the deposited data

How the results depend on the processing

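Over 13 settings (all but those that leave out a single array, and with slide column 1 alone among them), the log2 fold changes stayed between 1.10 and 1.36 for Pdk4, 1.20 and 1.25 for Pdk2, 0.64 and 0.70 for Pdk1, -0.68 and -0.53 for Pdk3, 1.03 and 1.22 for Pdp2, 0.79 and 0.96 for Acat1, 0.19 and 0.33 for Oxct1, -0.51 and -0.32 for Bdh1 and -0.29 and 0.044 for Pdp1, whose lowest value is the mean of its probes. The highest value of Pdp2, 1.22, is also the mean of its probes and so includes the dim probe for which no fold is given. Several of the 13 settings, such as the plain t-test, the replicate block and no fold threshold, change the test or the call and leave the log2 fold change as it was. Without each array in turn the log2 fold changes were 1.06 to 1.38, 1.18 to 1.25, 0.60 to 0.77, -0.66 to -0.58, 0.99 to 1.29, 0.71 to 0.99, 0.095 to 0.35 and -0.51 to -0.14 and -0.18 to 0.033 in the same order.

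With the slide column as a term of the fit, or within column 1 alone, no gene of the 9 and none of any pathway list was called (0 for each count), and Pdk1 (0.70), Pdk2 (1.22), Pdk3 (-0.68), Pdk4 (1.10), Pdp2 (1.12) and Acat1 (0.79) kept their direction, while Pdp1 turned to 0.044. Over all genes, the term left 0 higher and 7 lower, and column 1 alone 0 and 0, each with 1 Zip13-KO array against the WT arrays of its column. The kept directions were fixed in advance, because Zip13-KO replicate 1 lay on one side of every WT array for each of those genes. Pdk3 was -0.53 with normexp, -0.55 with no background correction and -0.55 with the deposited table, so that 0 of the 9 genes were lower, and Bckdk was not called there (0 higher). The cause was not tested.

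Over all genes, the report's setting called 1576 higher and 1282 lower. With the plain t-test, Benjamini-Hochberg adjusted, these counts were 1007 and 721, and with no fold threshold 2951 and 2330. Leaving out an array gave 961 to 1672 higher and 782 to 1455 lower, with the fewest without Zip13-KO replicate 1 (961 and 782) and without Zip13-KO replicate 2 (1027 and 791). Of the lists, the plain t-test called 3 genes of pyruvate supply, 4 transcription regulators and 0 transporters and receptors higher. The last count was 0 with no filter and 4 with no fold threshold. Leaving out an array gave 3 to 5 subunits of the complex, 3 to 7 genes of pyruvate supply, 0 to 1 for Bckdk and Ppm1k, 2 to 3 other ketone enzymes, 0 to 1 transporters and receptors, and 3 to 8 transcription regulators higher. The fold change of Pdk2 minus that of Pdk4 ranged from -0.14 to 0.13 when an array was left out.

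With the replicate number as a replicate block, 5 of the 9 genes were higher and 1 was lower, as without it, and 1278 genes were higher and 1051 lower in all, so the block changed no call among the 9. Correlations between same-numbered arrays give no sign that the numbers pair the samples. What limits the dim probes is their signal over background: the third Bdh1 probe has no bound in Zip13-KO iWAT.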
